A study of Mus musculus with 8 samples.

Results

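Otx2, Pou3f1, Zic2, Zic5 and Hesx1 encode transcription factors of the anterior epiblast and early neural tissue of the mouse embryo. Their RNA levels were compared between cells of gastrulating embryos that were separated by the activity of a Mesp1 reporter. The members were taken as the array probe sets annotated with exactly 1 of these 5 gene symbols. This gave 6 probe sets (2 for Pou3f1 and 1 for each other gene) among 28898 probe sets for 17097 genes. Of the 5 genes, 4 passed the filter on low values and were among the 11706 genes tested.

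All embryos carried Mesp1-rtTA and Teto-H2B-GFP, a reverse tetracycline transactivator under Mesp1 control and a histone-GFP fusion that it switches on. The groups were GFP+ and GFP- cells at embryonic day (E) 7.5 and GFP+ and GFP- cells at E6.5, with 2 arrays each. Each array held amplified RNA from 50 living sorted cells, and the design names the repeats as different biological samples. The labels do not state how many embryos were pooled for a sort or when the transgene was induced, and H2B-GFP can outlast transcription of the transactivator. GFP- cells were living cells with no further marker, and so may hold several cell types.

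Before gastrulation the mouse epiblast is a pluripotent epithelium. As the primitive streak forms posteriorly, cells that pass through it become mesoderm and endoderm, and the anterior epiblast that does not enter the streak forms neural and surface ectoderm. Otx2 is a homeobox gene needed for the head and is expressed across the early epiblast and in the visceral endoderm, the extraembryonic layer around it, before it is restricted anteriorly. Hesx1 encodes a homeobox repressor of the anterior visceral endoderm and the prospective forebrain. Pou3f1, also called Oct6, encodes a POU-domain factor of the epiblast that promotes neural fate. Zic2 and Zic5 encode zinc finger factors of the epiblast and neural plate, and lie next to each other among the protein-coding genes of chromosome 14 in the RefSeq annotation of GRCm38.p6. Otx2 and Hesx1 lie on the same chromosome and Pou3f1 lies on chromosome 4.

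Upstream sequences are shown for Otx2 and Zic5, whose array profiles were the most alike among the member genes once the mean of each replicate number was removed (r = 0.98 over 8 arrays, and 0.60 as deposited). RefSeq windows on GRCm38.p6 were at hand for Otx2 (4 windows, for different start sites), Zic5 (1) and Hesx1 (1), and the 250 bases before each start site were searched on both strands. The motifs were the homeodomain core TAATTA, the OTX-type homeodomain letters TAATCC, the POU octamer ATGCAAAT and the TATA box TATAAA. Capitals mark matches, and no marked matches overlapped.
Otx2, chr14:48667645-48667894, minus strand: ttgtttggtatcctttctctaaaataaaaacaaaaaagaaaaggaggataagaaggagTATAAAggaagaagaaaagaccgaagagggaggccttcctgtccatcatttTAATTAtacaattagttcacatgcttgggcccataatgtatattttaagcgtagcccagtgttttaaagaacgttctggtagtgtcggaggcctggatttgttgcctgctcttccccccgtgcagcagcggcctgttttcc
Otx2, chr14:48665110-48665359, minus strand: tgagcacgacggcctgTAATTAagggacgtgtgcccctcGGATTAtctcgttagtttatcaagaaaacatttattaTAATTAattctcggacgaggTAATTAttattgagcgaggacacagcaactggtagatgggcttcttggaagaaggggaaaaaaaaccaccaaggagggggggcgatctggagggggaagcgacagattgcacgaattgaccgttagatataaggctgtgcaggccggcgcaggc
Zic5, chr14:122465659-122465908, minus strand: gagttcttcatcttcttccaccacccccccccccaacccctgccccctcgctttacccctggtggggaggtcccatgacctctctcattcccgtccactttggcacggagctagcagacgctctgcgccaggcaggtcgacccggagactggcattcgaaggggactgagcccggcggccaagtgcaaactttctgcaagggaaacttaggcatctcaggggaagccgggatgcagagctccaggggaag

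The Otx2 window at chr14:48667645-48667894 held TAATTA 141 to 136 bases and TATAAA 192 to 187 bases before the start. The Otx2 window at chr14:48665110-48665359 held TAATTA at 3 places, starting 234, 174 and 154 bases before the start, and TAATCC on the opposite strand (GGATTA as printed) at 211 to 206 bases. The Zic5 window, the other 2 Otx2 windows and the Hesx1 window held none of these letters. Of all 32851 windows of 250 bases, 4.84% held TAATTA, 6.25% TAATCC, 1.6% ATGCAAAT and 12.4% TATAAA. GC content was 42.0% and 48.4% in the printed Otx2 windows and 62.4% in the Zic5 window, against a median of 52.4%. These matches are letters in a window, and no binding was measured.

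All values below are log2 expression values as the authors deposited them, and all differences are on that log2 scale. Mesp1, the gene that drives the reporter, was at 8.75 and 8.65 in GFP+ cells and 7.76 and 8.06 in GFP- cells at E7.5 (replicates 1 and 2). At E6.5 it was at 9.75 and 10.03 in GFP+ cells and 5.64 and 6.26 in GFP- cells. The fractions were therefore well apart in Mesp1 at E6.5 and closer at E7.5. Array medians were 4.20 to 4.23 for replicate 1 and 4.54 to 4.59 for replicate 2, so that a replicate number carried an offset and differences within each number are given beside the pooled ones. A gene passed the test at an adjusted p under 0.05, from limma over all 8 arrays with Benjamini-Hochberg adjustment over 11706 genes. The median of all deposited values, 4.38, served as the filter value. Below it the size of a difference is uncertain.

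Otx2 was lower at E7.5 than at E6.5 in both fractions, and within each stage it was lower in GFP+ than in GFP- cells. It was at 7.60 and 7.48 in GFP+ cells and 7.72 and 8.36 in GFP- cells at E7.5, against 8.53 and 9.03 in GFP+ cells and 9.17 and 9.60 in GFP- cells at E6.5. In ascending order the groups were GFP+ at E7.5 (7.54 ± 0.08, mean ± SD, n = 2), GFP- at E7.5 (8.04 ± 0.45), GFP+ at E6.5 (8.78 ± 0.35) and GFP- at E6.5 (9.38 ± 0.31), with no overlap between neighbours. The E7.5 minus E6.5 difference over the mean of both fractions was -1.29 (SE 0.25, 95% interval -1.88 to -0.70, 2.45-fold), with -1.19 and -1.39 within replicates 1 and 2. It passed only with the replicate number as a block (limma adjusted p = 0.136 without and 0.0464 with the block). That call was lost when every named probe set was tested with the block (limma adjusted p = 0.0675, when 0.28% passed). It was also lost in all 8 blocked fits that each left out 1 array, where the difference was -1.45 to -1.13 and limma adjusted p 0.0729 to 0.237. Its size was close in the 2 fractions, at -1.24 (SE 0.36) in GFP+ and -1.35 (SE 0.36) in GFP- cells, neither of which passed alone (limma adjusted p = 0.802 and 0.376). Otx2os1, the non-coding gene opposite Otx2, looked at after its values were seen, varied from 4.19 to 5.13 over the arrays and overlapped between all groups.

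Hesx1 was close to the floor of the arrays in every sample. Its probe set was at 3.16 and 3.27 in GFP+ cells and 3.34 and 3.35 in GFP- cells at E7.5, against 3.04 and 3.03 in GFP+ cells and 3.12 and 3.64 in GFP- cells at E6.5. All 8 values lay below 4.38, so the gene was not tested and no order is read from its levels. The highest value, 3.64, was on the GFP- E6.5 array of replicate 2.

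**Figure D1:**
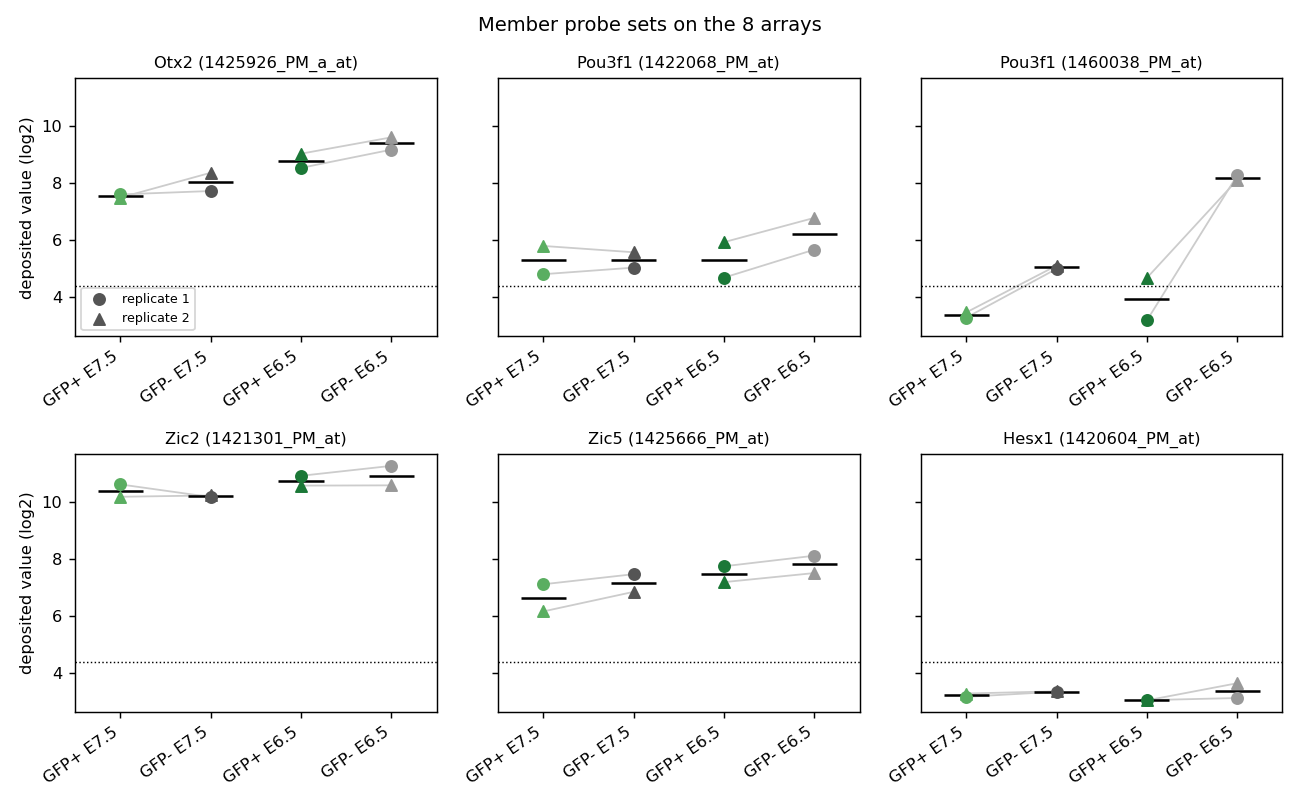
Deposited log2 value of each member probe set on the 8 arrays (circles replicate 1, triangles replicate 2, bars group means, dotted line the filter value of 4.38, grey lines joining arrays of 1 replicate number within a stage). Otx2 steps up from GFP+ E7.5 to GFP- E6.5, Pou3f1 1460038_PM_at stands high only on the 2 GFP- E6.5 arrays, and Hesx1 stays below the dotted line throughout.

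Pou3f1 has 2 probe sets with different profiles. Probe set 1422068_PM_at, the one with the higher mean and so the one used in the test, was at 4.80 and 5.79 in GFP+ cells and 5.03 and 5.57 in GFP- cells at E7.5. At E6.5 it was at 4.68 and 5.92 in GFP+ cells and 5.66 and 6.78 in GFP- cells. The GFP- E6.5 mean of 6.22 ± 0.79 was the highest, and the other 3 group means were all 5.30. Replicate 2 exceeded replicate 1 by 0.54 to 1.24 in every group, which is as large as the differences between groups. GFP+ minus GFP- at E6.5 was -0.92 (SE 0.59, -0.98 and -0.85 within the replicates) and did not pass (limma adjusted p = 1, and 0.236 with the replicate block).

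The other Pou3f1 probe set, 1460038_PM_at, was singled out after its values were seen. It lay above 4.38 on 5 arrays, of which 4 were GFP-. It was at 3.28 and 3.46 in GFP+ cells and 4.99 and 5.10 in GFP- cells at E7.5, against 3.18 and 4.67 in GFP+ cells and 8.27 and 8.11 in GFP- cells at E6.5. Both GFP- E6.5 arrays thus stood far above the other 6. With this probe set in place of the first, GFP+ minus GFP- at E6.5 was -4.26 (SE 0.48, 95% interval -5.38 to -3.14, -5.09 and -3.44 within the replicates). This passed (limma adjusted p = 0.0445, and 0.0465 with the replicate block), when 0.094% of genes did, or 0.265% with the block. Among GFP+ arrays only E6.5 replicate 2 exceeded 4.38, so by its own values it needed GFP- arrays, where it is high, to meet the filter. It was also chosen after its values were seen, so the pass is a description and no support. Of 28898 named probe sets, 4 had a lower difference. The ratio is 19.2-fold, but its size is uncertain because the GFP+ means (3.93 at E6.5 and 3.37 at E7.5) lay below 4.38.

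The call on Pou3f1 1460038_PM_at at E6.5 depended on which features were tested and on single arrays. When every named probe set was tested on its own, limma adjusted p was 0.0846 (0.0727 with the replicate block), and 0.0138% of probe sets passed without the block. Without GFP+ E6.5 replicate 1 the difference was -3.52 (limma adjusted p = 0.243), and of the 8 fits that each left out 1 array the call held only without GFP+ E6.5 replicate 2 (-5.01, limma adjusted p = 0.0476). At E7.5 the same probe set differed by -1.68 (SE 0.48, -1.71 and -1.64 within the replicates) and did not pass (limma adjusted p = 1).

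Between stages, Pou3f1 1460038_PM_at differed by -3.14 in GFP- cells (SE 0.48, -3.28 and -3.01 within the replicates, 8.83-fold) and by -0.56 in GFP+ cells (SE 0.48, 0.10 and -1.21). The difference in GFP- cells did not pass (limma adjusted p = 0.103, and 0.0626 with the block), when 0.094% of genes did, or 0.333% with the block. It was at 0.145 with every named probe set tested, where 0.0623% passed, and at 0.0492 without either GFP+ E6.5 array. The difference between fractions shrank between the stages by 2.58 (SE 0.67), which did not pass (limma adjusted p = 1, and 0.591 with the block).

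**Figure D2:**
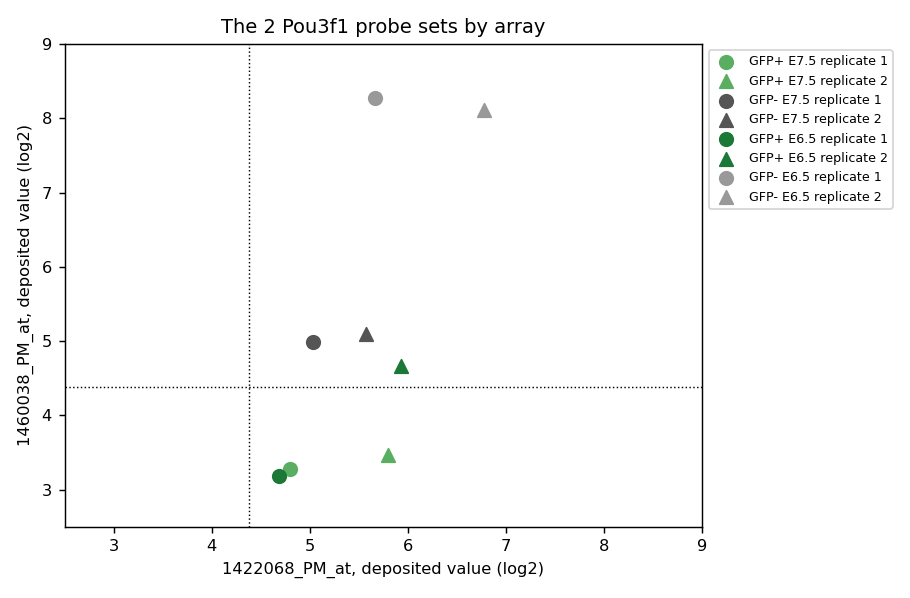
The 2 Pou3f1 probe sets plotted against each other, 1 point per array (deposited log2 values, circles replicate 1, triangles replicate 2). The 2 GFP- E6.5 arrays lie above 8 on 1460038_PM_at and all other arrays at 5.10 or less, while 1422068_PM_at spans 4.68 to 6.78 and separates the replicate numbers within each group.

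Zic2 stayed between 10.16 and 11.25 on all 8 arrays. It was at 10.60 and 10.17 in GFP+ cells and 10.16 and 10.22 in GFP- cells at E7.5, against 10.90 and 10.56 in GFP+ cells and 11.25 and 10.57 in GFP- cells at E6.5. The fractions overlapped at both stages, and in GFP- cells both E7.5 arrays lay below both E6.5 arrays. GFP+ minus GFP- was 0.20 at E7.5 (SE 0.35, 95% interval -0.62 to 1.02) and -0.18 at E6.5 (SE 0.35, -0.998 to 0.64). E7.5 minus E6.5 in GFP- cells was -0.72 (SE 0.35, limma adjusted p = 0.875, -1.09 and -0.35 within the replicates).

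Zic5, the chromosomal neighbour of Zic2, was at 7.10 and 6.15 in GFP+ cells and 7.46 and 6.84 in GFP- cells at E7.5. At E6.5 it was at 7.73 and 7.18 in GFP+ cells and 8.10 and 7.49 in GFP- cells. Replicate 2 was lower than replicate 1 by 0.56 to 0.95 in every group, opposite to Pou3f1 1422068_PM_at. Within each replicate number the groups had the same order in Zic5 and Otx2, with GFP+ E7.5 lowest and GFP- E6.5 highest. E7.5 minus E6.5 over the mean of both fractions was -0.74 (SE 0.32, 95% interval -1.49 to 0.01, -0.83 in GFP+ and -0.65 in GFP- cells). It did not pass (limma adjusted p = 0.704, and 0.0943 with the block).

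**Figure D3:**
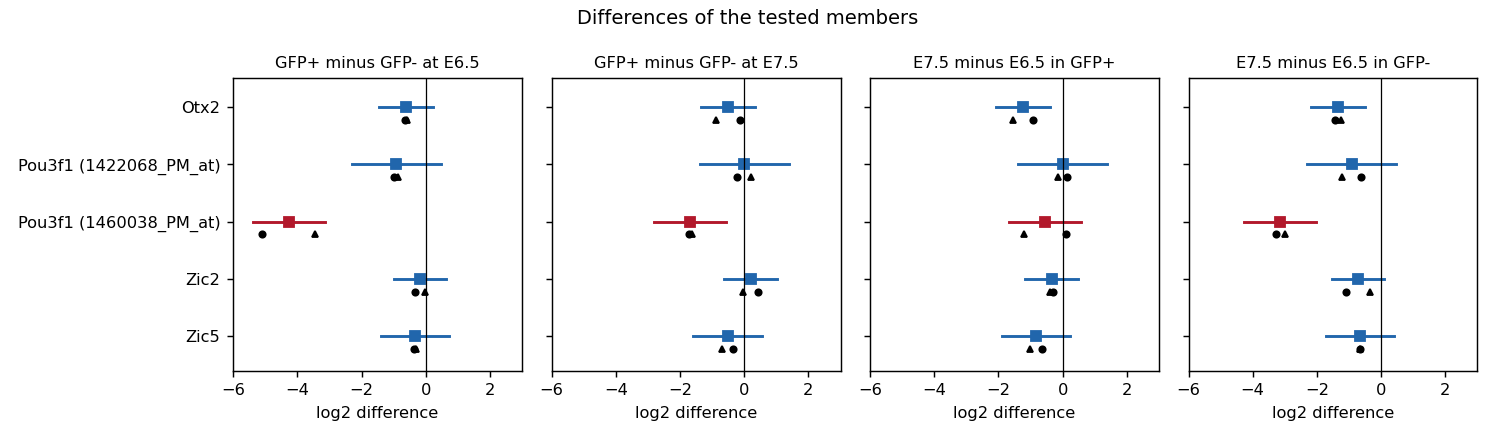
Log2 difference of each tested member in the comparisons of fraction and stage, with the 95% interval of the limma fit (squares and lines) and the differences within replicate 1 (black circles) and replicate 2 (black triangles). Red marks Pou3f1 1460038_PM_at, whose E6.5 fraction difference of -4.26 lies far from those of the other probe sets.

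The comparison of stages asked how the members changed between E6.5 and E7.5 within a fraction. In GFP- cells all 4 tested members were lower at E7.5, in both replicates and with no overlap between the groups, which held for 13.6% of all genes tested. The 4 were above 4.38 on all 8 arrays, so the filter did not force this direction. Their median difference was -0.82, against -0.01 over all genes. None passed (0 of 4, when 0.094% of genes passed, or 0.333% with the replicate block). At an unadjusted p under 0.05 there was 1 of 4, Otx2, against 6.48% of all genes, and 4 of 4 with the block, against 12.2%. In GFP+ cells 4 of 4 were also lower, 3 of them in both replicates and 2, Otx2 and Zic5, without overlap, against 15.2% of genes. Their median was -0.59, against -0.03 over all genes. None passed (when 0.0256% of genes did with or without the block), and 1 of 4 had an unadjusted p under 0.05 (3.85% of all genes), or 2 with the block (8.69%). Pou3f1 1422068_PM_at differed by -0.01 between the stages in GFP+ cells.

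Averaged over the fractions, the stage difference had a median of -0.64 over the 4 members. None passed without the block, when 0.256% of all genes did, and 1 passed with it, when 0.803% did. That 1 was Otx2, whose call ended over all named probe sets or without any 1 array, as given above. The GFP+ comparison and the GFP- comparison between stages use different arrays. The fraction comparisons share these arrays with the stage comparisons.

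The comparison of fractions asked how the members differed between reporter-positive cells and the rest of the embryo. At E6.5 all 4 were lower in GFP+ cells in both replicates, with a median of -0.47 against 0.01 over all genes. Only Otx2 showed no overlap (-0.61, SE 0.36, -0.64 and -0.57 within the replicates), and so did 13.7% of genes. None passed, when 0.0769% of genes did, or 0.256% with the block. At an unadjusted p under 0.05 there were 0 of 4, against 5.73% of all genes, and 2 with the block, against 10.8%. Zic5 was at -0.34 (SE 0.45, -0.37 and -0.32 within the replicates). Since these are bulk samples, fewer cells of a type and less RNA per cell cannot be told apart.

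At E7.5 the fractions differed less evenly. Otx2 was lower in GFP+ cells without overlap (-0.50, SE 0.36), although by -0.12 in replicate 1 and -0.87 in replicate 2, and 10.8% of genes showed no overlap in that direction. Zic5 was at -0.52 (SE 0.45, -0.35 and -0.69 by replicate, -0.995 without GFP+ E7.5 replicate 1 and -0.04 without GFP+ E7.5 replicate 2) and Pou3f1 1422068_PM_at at 0.00 (SE 0.59, -0.23 and 0.22). By limma 0% of genes passed, both without and with the block, while 2.41% had an unadjusted p under 0.05 (6.45% with the block). Of the members 0 did, or 1 with the block.

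Averaged over the stages, 3 of 4 members were lower in GFP+ cells and 0 passed, when 0.00854% of genes did, or 0.0683% with the block. Otx2 was at -0.55 (SE 0.25, limma adjusted p = 0.983, and 0.333 with the block) and Zic2 at 0.01 (SE 0.25). The test of whether the difference between fractions itself changed with stage called 0% of genes, and 2.71% had an unadjusted p under 0.05 (6.5% with the block). For Otx2 that change was 0.11 (SE 0.50, 95% interval -1.08 to 1.30), for Zic2 0.38 (SE 0.49) and for Zic5 -0.18 (SE 0.64).

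Markers of other cell types moved with the fractions. Genes of the visceral endoderm, where Otx2 and Hesx1 are also known to be expressed, had a lower mean in GFP+ cells for 13 of 13 genes at each stage. At E7.5 this rested on replicate 2, since the median was -0.02 in replicate 1 and -0.85 in replicate 2. Their mean level per array was 5.28 and 5.11 in GFP+ cells and 5.05 and 6.30 in GFP- cells at E7.5, against 4.29 and 4.66 in GFP+ cells and 6.11 and 7.98 in GFP- cells at E6.5. The GFP- E6.5 array of replicate 2 was the highest. Between stages in GFP+ cells 8 of the 13 were higher and 5 lower at E7.5 (median 0.12). The list mean there leans on few genes, as Cited1 went from a GFP+ mean of 4.70 to 9.01. Spink1 was at 7.39 in GFP+ E7.5 replicate 1 and 3.49 in replicate 2. None of the 13 genes lay below 4.38 on all arrays. However, Apob and Cubn lay below 4.38 on every GFP+ array and entered the test through GFP- arrays alone. Hnf4a, Spink1 and Trf each exceeded 4.38 on only 1 GFP+ array, so they too needed GFP- arrays to meet the filter. For these genes of the 13 the filter favoured the lower direction in GFP+ cells. None of the 13 passed between fractions at E6.5 (median -2.70), although Rbp4, the retinol-binding protein gene, did with the block (-3.31, SE 0.75, limma adjusted p = 0.271 without and 0.048 with it). Otx2 differed between the fractions at E6.5 by about the same in replicate 1 (-0.64) as in replicate 2 (-0.57), whereas the visceral endoderm median was -1.60 in replicate 1 and -3.43 in replicate 2. The part of visceral endoderm in the members' results was not tested.

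Extraembryonic ectoderm genes had a mean of 5.49 and 5.85 in GFP+ cells and 6.86 and 6.16 in GFP- cells at E7.5, against 4.94 and 5.22 in GFP+ cells and 5.53 and 6.33 in GFP- cells at E6.5. They too were lower in GFP+ cells at each stage, in 9 of 10 genes at E7.5 and 8 of 10 at E6.5. These counts include Elf5 and Wnt7b, which lay below 4.38 on every GFP+ array. Both entered the test through GFP- arrays alone, so the filter favoured their direction. Primitive streak and mesoderm genes had a mean of 7.92 and 7.49 in GFP+ cells and 6.90 and 6.999 in GFP- cells at E7.5, against 8.07 and 8.29 in GFP+ cells and 5.49 and 6.16 in GFP- cells at E6.5. At E6.5 all 11 tested were higher in GFP+ cells and 2, Mesp1 (3.94, SE 0.33, limma adjusted p = 0.0209) and Snai1 (3.13, SE 0.34, limma adjusted p = 0.0495), passed, in the direction that the label of the fraction gives. Neither passed in any of the 8 fits that each left out 1 array. Mesp2, one of the 11 tested, lay below 4.38 on every GFP- array and entered the test through GFP+ arrays alone. Wnt3 exceeded 4.38 on only 1 GFP- array and also needed GFP+ arrays to meet the filter. The filter thus favoured a higher level of Mesp2 and Wnt3 in GFP+ cells. The streak genes of GFP- cells were higher at E7.5 than at E6.5 in 8 of 11, while the 4 members were lower. The 8 include Mesp2, with a GFP- mean of 4.23 at both stages, so its direction there is uncertain. Tbx6, also among them, lay below 4.38 on both GFP- E6.5 arrays. Between stages 1 of the 11 passed in GFP- cells, or 3 with the block, all higher at E7.5. In GFP+ cells 1 passed, with or without the block, and over both fractions 1, or 2 with the block, again all higher.

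**Figure D4:**
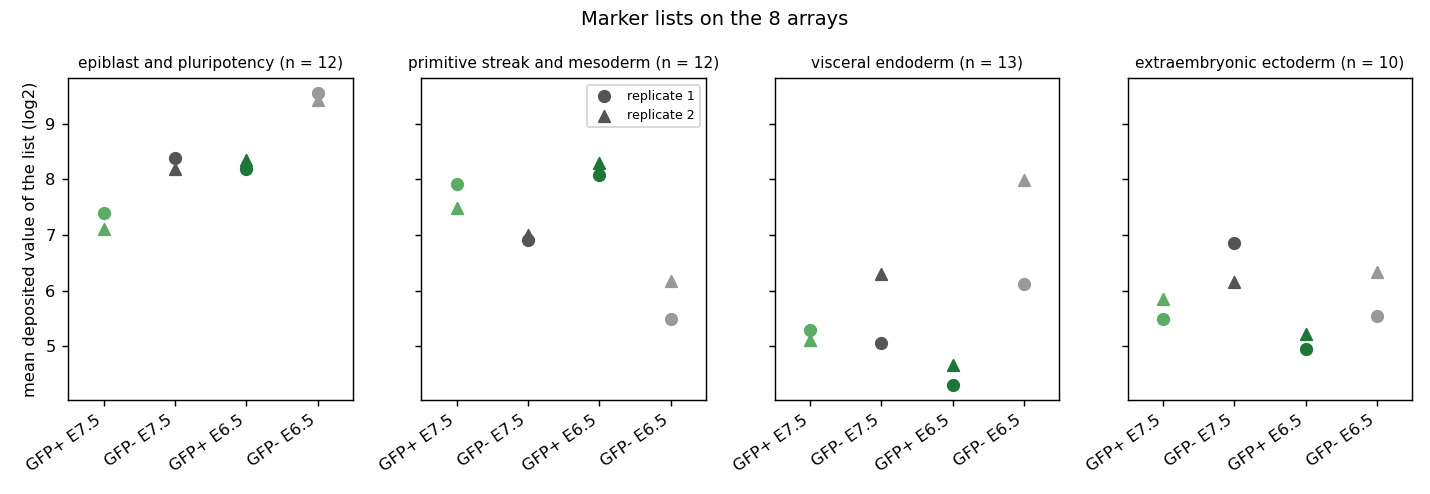
Mean deposited log2 value of 4 marker lists on each array (n is the number of genes with a probe set, circles replicate 1, triangles replicate 2). Epiblast genes are lowest in GFP+ cells at E7.5 (7.40 and 7.11) and highest in GFP- cells at E6.5 (9.55 and 9.42), and visceral endoderm genes reach 7.98 on GFP- E6.5 replicate 2.

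Across the 8 arrays, after the mean of each replicate number was removed, Otx2 and Zic5 had the highest correlation between 2 member genes (r = 0.98, n = 8). Otx2 had r = 0.81 with Zic2, 0.71 with Pou3f1 1422068_PM_at and 0.76 with 1460038_PM_at. The 2 Pou3f1 probe sets had r = 0.91, although the size of their changes differed. Zic2 and Zic5 had r = 0.69. On the values as deposited another pair of genes was first, Zic2 and Zic5 (0.78), with Otx2 and Pou3f1 1460038_PM_at at 0.76 and Otx2 and Zic5 at 0.60. There Pou3f1 1422068_PM_at had -0.07 with Zic2 and -0.11 with Zic5. After the centring, Hesx1, at the floor, had -0.31 to 0.49 with the other probe sets. These points are 4 groups of 2 arrays, so r mostly describes 4 group means.

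By the same measure the tested genes most like Otx2 were Gcat, a mitochondrial enzyme gene of threonine breakdown (r = 0.99), Etv5, a transcription factor gene that responds to FGF signals (0.98), and C630004L07Rik (0.98). On the values as deposited their r with Otx2 was 0.72, 0.89 and 0.63. Etv5 averaged 6.98 in GFP+ cells and 7.36 in GFP- cells at E7.5, against 8.35 in GFP+ cells and 8.78 in GFP- cells at E6.5, the order Otx2 has. C630004L07Rik lay below 4.38 in all 4 group means. Nearest to Zic5 were Eme1, a subunit gene of a DNA structure-specific nuclease (0.99), Gcat (0.98) and the chromatin remodeller gene Chd6 (0.98). Gcat was thus among the nearest genes of both, which themselves had r = 0.98. All these genes were picked for the highest r among the 11706 genes tested, members left out, so high values follow from the choice.

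For Zic2 the nearest were the sialyltransferase gene St6galnac2 (0.98), Mnt, which encodes a partner of Max (0.98), and Zbtb2 (0.97). Those of Pou3f1 1422068_PM_at were Ypel4 (1.00), G3bp2, a stress granule protein gene (0.98), and Ing1 (0.98). On the values as deposited these had r = 0.34, 0.00098 and -0.46, so that this likeness rests on the centring. Ypel4 lay below 4.38 in 3 of its 4 group means. The nearest genes of 1460038_PM_at, added after its values were seen, were Tlcd3b (1.00), Sfrp2, which encodes a secreted Wnt modulator (0.99), and the glutamate transporter gene Slc1a3 (0.98). As deposited their r was 0.75, 0.89 and 0.97, and Slc1a3 lay below 4.38 in both GFP+ group means. Sfrp2 averaged 5.35 in GFP+ cells and 6.23 in GFP- cells at E7.5, against 5.53 in GFP+ cells and 7.22 in GFP- cells at E6.5.

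Epiblast and pluripotency genes were lower at E7.5 in 12 of 12 tested genes of the list in GFP+ cells. In GFP- cells 10 of 12 were lower, and the medians were -0.89 in GFP+ and -1.15 in GFP- cells. The counts include Esrrb and Foxd3, which lay below 4.38 on every GFP+ array, so their direction in GFP+ cells is uncertain. In GFP- cells the low-value filter fixed the direction of Foxd3. Their mean level per array was 7.40 and 7.11 in GFP+ cells and 8.39 and 8.19 in GFP- cells at E7.5, against 8.19 and 8.35 in GFP+ cells and 9.55 and 9.42 in GFP- cells at E6.5. Averaged over the fractions 1 of 12 passed. With the block 3 did, all lower at E7.5, although the low-value filter fixed that direction for Foxd3, one of them. Nanog, a pluripotency homeobox gene, fell by 2.55 (SE 0.29, limma adjusted p = 0.0247). It was at 5.07 and 4.78 in GFP+ cells and 5.07 and 6.19 in GFP- cells at E7.5, against 7.67 and 7.76 in GFP+ cells and 7.78 and 8.11 in GFP- cells at E6.5. Fgf5, a growth factor gene of the primed epiblast, was at -1.98 (SE 0.62, limma adjusted p = 0.435, and 0.0433 with the block). In 7 of the 8 fits that each left out 1 array no epiblast gene passed, the exception being the fit without GFP- E7.5 replicate 2.

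Foxd3, a forkhead gene of the epiblast, was highest on the 2 GFP- E6.5 arrays, as Pou3f1 1460038_PM_at was. It was at 3.72 and 3.95 in GFP+ cells and 3.90 and 4.08 in GFP- cells at E7.5, against 3.84 and 4.05 in GFP+ cells and 5.67 and 6.04 in GFP- cells at E6.5. Only the GFP- E6.5 arrays were above 4.38, so the gene entered the test through them alone. The filter thereby fixed the direction of its differences, and these values are a description with no call. Utf1 and Slc7a3 had the list's largest differences between fractions at E6.5, at -3.70 (SE 0.78) and -3.54 (SE 0.68), and neither passed (limma adjusted p = 0.221 and 0.19).

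Other neural plate genes differed in both directions between the stages. Of 16 tested, 10 were higher and 6 lower at E7.5 in GFP- cells, with a median of 0.10 against -0.82 for the members. Among the higher genes, Foxb1 lay below 4.38 on every E6.5 array and entered the test through E7.5 arrays alone. The filter thus favoured its direction. Gbx2, a homeobox gene whose domain borders that of Otx2 in the later neural plate, moved the other way from Otx2. It was at 6.65 and 7.90 in GFP+ cells and 6.82 and 6.51 in GFP- cells at E7.5, against 4.23 and 4.74 in GFP+ cells and 4.23 and 3.45 in GFP- cells at E6.5. Its stage difference over both fractions was 2.81 (SE 0.35, limma adjusted p = 0.0322). Among its E6.5 arrays only GFP+ replicate 2 exceeded 4.38, so it needed E7.5 arrays, where it is high, to meet the filter. The filter thus favoured its direction, its size is uncertain, and no call is read from it. In 7 of the 8 fits that each left out 1 array no neural plate gene passed, the exception being the fit without GFP+ E7.5 replicate 1.

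Ncam1, the neural cell adhesion gene, was higher at E7.5 by 2.39 over both fractions (SE 0.50, limma adjusted p = 0.173, and 0.0153 with the block). Irx3, an Iroquois homeobox gene, was at 7.51 and 8.86 in GFP+ cells and 9.33 and 8.90 in GFP- cells at E7.5, against 7.08 and 8.12 in GFP+ cells and 5.79 and 6.81 in GFP- cells at E6.5. Between fractions at E6.5 the largest differences of the list were in Sall2, a zinc finger gene (-2.23, SE 0.61), and Sox2, a neural and pluripotency factor gene (-1.68, SE 0.68), and neither passed. At E7.5 these were again the largest, at -1.65 for Sall2 and -1.79 for Sox2. Sox2 lay below 4.38 on every GFP+ array and entered the test through GFP- arrays alone. The filter thus favoured a lower level of Sox2 in GFP+ cells, and the size of its differences is uncertain. Six3, a homeobox gene of the forebrain, was at 4.65 and 4.81 in GFP+ cells and 4.88 and 6.16 in GFP- cells at E7.5, against 4.39 and 4.52 in GFP+ cells and 4.75 and 4.30 in GFP- cells at E6.5, and did not pass in any comparison.

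**Figure D5:**
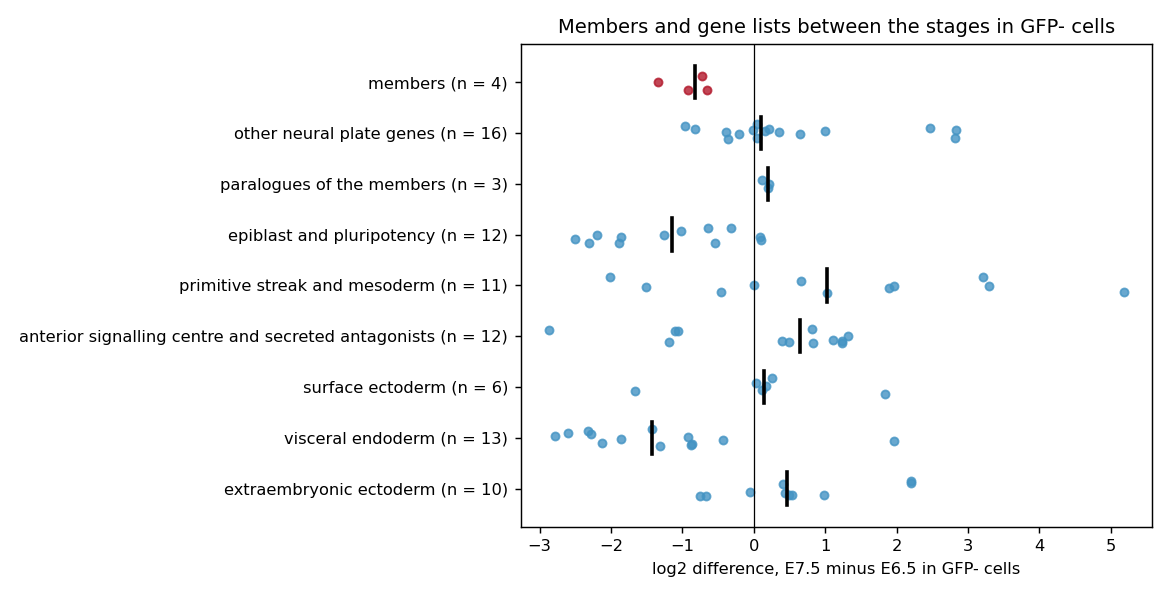
Log2 difference E7.5 minus E6.5 in GFP- cells of each tested gene in the members and the 8 other lists (points, with black bars at list medians). The 4 members, in red, lie between -1.35 and -0.65 around a median of -0.82, while other neural plate genes spread on both sides of 0 around a median of 0.10.

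Among paralogues of the members, 3 were tested, and Crx, Pou3f2 and Zic4 lay below 4.38 on all arrays. Otx1, the closest relative of Otx2, was at 3.81 and 3.15 in GFP+ cells and 3.55 and 3.45 in GFP- cells at E7.5, against 5.66 and 5.38 in GFP+ cells and 3.54 and 3.08 in GFP- cells at E6.5. Only the GFP+ E6.5 arrays were above 4.38, and the gene entered the test through them alone, so the direction of its differences was fixed by the filter and no test of it is given. Pou3f4 and Pou3f3 had fraction differences at E6.5 of -0.11 and -0.25.

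Genes of the anterior signalling centre and secreted antagonists, which act on the anterior epiblast, changed in both directions. Of 12 tested, 8 were higher and 4 lower at E7.5 in GFP- cells, with medians of 1.497 in replicate 1 and -1.03 in replicate 2. Lefty1, a Nodal antagonist, fell by 2.86 in GFP- cells (SE 0.32, limma adjusted p = 0.047). It was at 4.99 and 5.25 in GFP+ cells and 4.69 and 4.77 in GFP- cells at E7.5, against 6.84 and 6.25 in GFP+ cells and 7.42 and 7.77 in GFP- cells at E6.5. No gene of this list passed in GFP- cells in any of the fits that each left out 1 array. Cer1, a secreted antagonist of Nodal, BMP and Wnt signals, was at 9.43 and 8.48 in GFP- cells at E7.5, against 5.49 and 9.78 in GFP- cells at E6.5, so that its stage difference had opposite signs in replicates 1 and 2. The anterior signalling genes were thus high on the GFP- E6.5 array of replicate 2, on which visceral endoderm genes were also highest.

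Surface ectoderm genes had 5 of 6 tested higher at E7.5 in GFP- cells (median 0.14), and none passed. The largest differences there were in Tfap2a, an AP-2 factor gene (1.83, SE 0.60), and Grhl2, a Grainyhead factor gene (-1.67, SE 0.53). Extraembryonic ectoderm genes had 7 of 10 higher in that comparison (median 0.46), and the 3 lower were Elf5, Rhox5 and Rhox6. Averaged over the fractions 2 of these 10 passed, Fgfr2 (2.26, SE 0.20, limma adjusted p = 0.0124) and Cdx2 (1.96, SE 0.26, limma adjusted p = 0.0499). In 7 of the 8 fits that each left out 1 array neither passed, and 1 did without GFP- E6.5 replicate 2.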

How the data were processed

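Log2 expression values per probe set were deposited by the authors, who used RMA (background correction, quantile normalization and probe summary) according to the submitters' processing notes. Its version and the build behind the probe annotation are not given in the sources used here. The arrays were Affymetrix mouse perfect-match arrays, with 8 arrays in 4 groups of 2 by reporter fraction and stage. The mean difference of sorted values was 0.0291 within replicate 1 arrays, 0.0248 within replicate 2 arrays and 0.229 between them. Among 45141 probe sets, 104 were controls, 28898 had 1 gene symbol in the platform annotation, 551 several and 15588 none; 28689 of the 28898 matched a GRCm38.p6 gene by Entrez identifier, with 0 symbols changed. The filter kept 18584 probe sets with 2 or more of 8 arrays above 4.38, the median of all deposited values. The probe set with the highest mean stood for its gene.

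The functions lmFit and eBayes of limma 3.58.1 (R 4.3.3, two-sided tests) were fitted to all 8 arrays with 1 mean for each group and no block, leaving 4 residual degrees of freedom, in 7 contrasts; Benjamini-Hochberg adjustment ran over 11706 genes. Same-numbered arrays deviated together from their group means in all 6 pairs of groups (r from 0.401 to 0.532 across genes, which are not independent replicates), so the fit was repeated with the replicate number as a block. This pairing comes from the data, since the labels do not say what a number shares. Whether replicates came from separate embryos or litters is not stated beyond their being biological samples, and the number of arrays limits the precision. The fit was tested on simulated data.

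The members and lists were chosen with earlier results of these data known. Named were the members and, in some comparisons, list genes past the threshold with or without the block. Otherwise the 2 with the largest change of a list were named. Streak genes that passed between stages were only counted. For each tested member probe set the 3 genes with the highest correlation over the 8 arrays were named. The second Pou3f1 probe set, Foxd3, Six3, Irx3, Cer1 and single levels of list genes were picked after values were seen. Alternatives were the block, the filter, the probe set rule, joint quantile normalization, only the arrays compared and leaving out each array. Promoter windows were RefSeq's on GRCm38.p6.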

Additional observations from a re-analysis of the deposited data

How the results depend on the processing

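Of 452 member differences recomputed under alternatives, 430 kept their direction and side of the threshold, 19 changed sign and 3 passed where the fit as reported did not. With the replicate block, the number of members past the threshold became 1, against 0, in the stage comparison averaged over fractions (Otx2; the call ended with every named probe set tested, limma adjusted p = 0.0675, and with any 1 array left out under the block, 0.0729 to 0.237, both tried after the data were seen), also with Pou3f1 by its other probe set, and the block changed no other call on a member. With Pou3f1 by its other probe set that number became 1, against 0, at E6.5 between fractions, with and without the block. That probe set was picked after its values were seen, so this count is no support. Over all 11706 genes the block gave 30 calls against 9 between fractions at E6.5, 39 against 11 between stages in GFP- cells, 8 against 1 for the mean fraction difference and 94 against 30 for the mean stage difference.

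Sign changes were in differences near 0. With all 8 arrays quantile normalized together, Pou3f1 at E7.5 was 0.014 and the mean fraction difference of Zic2 -0.00302. Leaving out 1 array at a time, Zic2 GFP+ minus GFP- ranged from -0.52 to 0.16 at E6.5, -0.019 to 0.42 at E7.5 and -0.16 to 0.18 for the mean of both stages. Pou3f1 ranged from -0.50 to 0.49 for GFP+ minus GFP- at E7.5 and from -0.63 to 0.62 for E7.5 minus E6.5 in GFP+ cells. The interaction ranged from -0.21 to 0.43 for Otx2 and -0.65 to 0.30 for Zic5. The cause was not tested. With 2 arrays a group the SE of a member's difference between 2 groups was 0.35 to 0.59, and the files used here hold no background level for probe sets under 4.38.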
